A study of Mus musculus with 2 samples.

Results

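The nuclei described here are 192 barcodes of a mammary gland library that carried RNA of neuronal genes. They are the barcodes with at least 500 unique molecular identifiers (UMIs, counted RNA molecules), at least 300 genes and under 5% mitochondrial UMIs that held at least 3 UMIs of Nrg3 and at least 3 UMIs of Kcnip4. They made up 0.921% of the 20854 barcodes that met the same depth and mitochondrial limits. Nrg3 encodes a neuregulin, a growth factor of the EGF family that signals through ErbB4, and Kcnip4 encodes a calcium-binding partner of Kv4 potassium channels. Both are genes of neurons. Because these 2 genes chose the nuclei, their own levels are a description only: Nrg3 gave 5848 UMIs and Kcnip4 9812 UMIs over the 192 nuclei. Of the nuclei just inside the limit, 18 had the lower of the 2 genes at 3 UMIs, and 13 barcodes just outside had it at 2 UMIs with the other gene at 3 or more. Of those 13, 10 carried a UMI of a Y-linked gene and 9 a UMI of Snap25.

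The series profiled single nuclei of the inguinal mammary fat pad, with its lymph nodes removed, from 8 lactating mice on postnatal day 11 of their pups. The labels name 4 dams with a floxed oxytocin receptor gene (Oxtr flox) and 4 with an adipocyte-specific Oxtr knockout, and do not give the Cre driver. Nuclei of all animals were pooled into 1 library made with 10x Genomics chemistry, and a separate library read their hashtags, the DNA tags that mark the sample of each nucleus. All 21805 barcodes occurred in both libraries. The deposited hashtag reference names 4 hashtags WT, 4 Oxtr-KO, and 2 only as Unknown_sample1 and Unknown_sample2, and the sources used here do not say what those 2 samples were. All dams lived on chow, were bred at 8 weeks of age and nursed litters that the labels list as 7 of 5 pups and 1 of 3. The comparison group below, called mammary nuclei, is the 13055 other barcodes called as 1 named animal, 1200 to 1990 from each of the 8. Since 1 pooled library holds all nuclei and the neuronal-gene nuclei were chosen by their counts, no test was made. Values are given with counting intervals or with the spread over the 8 animals.

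Neurons carry signals through voltage-gated sodium, potassium and calcium channels and pass them on at synapses, where transmitter released from vesicles binds receptors held in place by scaffold and adhesion proteins. Glutamatergic neurons load vesicles with transporters such as Slc17a6 and Slc17a7, and GABAergic neurons make GABA with Gad1 and Gad2 and load it with Slc32a1. In the mammary gland, nerve fibres run in from cell bodies outside the tissue, so that neuronal nuclei are not a usual component of a fat pad. Oxytocin, the hormone of milk ejection, is made by neurons of the hypothalamus.

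The hashtag sequences are shown because the calls of sample of origin rest on them. Each is 15 bases long and is written 5′ to 3′ as in the deposited reference. In the 2 unknown hashtags, capitals mark the positions that differ from Oxtr-KO_02, the named hashtag nearest to each. Oxtr-KO_01 is shown because it was the commonest background tag.
Unknown_sample2: cCGTaCcTcAtTGTT
Unknown_sample1: cAcTaGAgcttGGAT
Oxtr-KO_02: ctcgaacgcttatcg
Oxtr-KO_01: tggtgtcattcttga
Unknown_sample2 differed from Oxtr-KO_02 at 10 positions and Unknown_sample1 at 8. Over all 45 pairs of hashtags the fewest differences were 6.

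Most neuronal-gene nuclei carried the Unknown_sample2 hashtag. HTODemux, a method that calls a hashtag positive above its background in other barcodes, gave Unknown_sample2 alone to 138 of 192 (71.9%, exact Clopper-Pearson interval 64.9 to 78.1%, counting error only). A further 35 (18.2%) carried several hashtags, and every one of the 35 included Unknown_sample2. For 17 (8.85%) no hashtag was called, and 2 were called as 1 named animal, WT_03 and Oxtr-KO_02. Unknown_sample1 entered no call. It held 299 of the 482 hashtag UMIs of the nucleus called WT_03, and was the top hashtag, with 186 to 213 UMIs, in 4 of the 17. Among the 20662 other barcodes, 139 (0.673%) were called Unknown_sample2 alone and 236 carried it beside another hashtag. Read the other way, 138 of the 277 nuclei called Unknown_sample2 alone (49.8%, 43.8 to 55.9%) met the rule for Nrg3 and Kcnip4.

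The hashtag counts behind these calls were far apart. In the 138 nuclei called Unknown_sample2 alone, its UMIs ran from 23 through a median of 233 to 2477. In mammary nuclei they ran from 0 through 10 to 20, so the groups did not overlap, as the call itself requires a count above background. Unknown_sample2 held a median of 56.3% of the hashtag UMIs of a neuronal-gene nucleus and 4.26% of those of a mammary nucleus. By the hashtag with the most UMIs, which need not be a majority, 161 of the 192 had Unknown_sample2 first, 17 had Oxtr-KO_01 and 5 had Unknown_sample1. Oxtr-KO_01 had a median of 40 UMIs in the neuronal-gene nuclei and 42 in mammary nuclei, and no nucleus of either group lacked it.

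**Figure D1:**
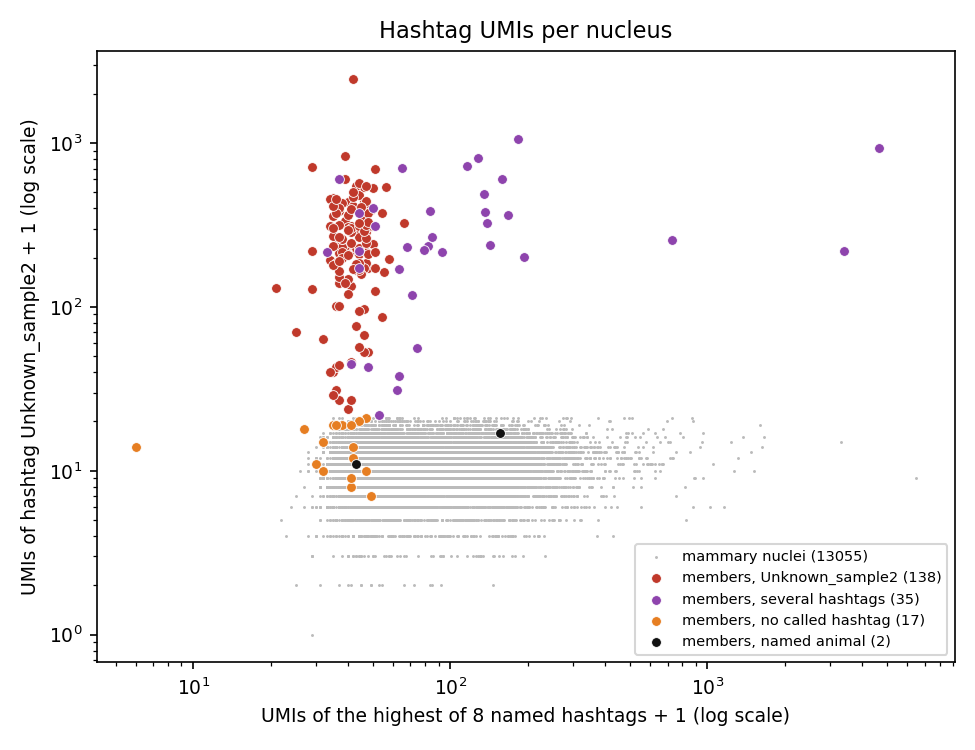
UMIs of Unknown_sample2 (vertical) against UMIs of the highest of the 8 named hashtags (horizontal), each plus 1 on log axes, 1 point per nucleus; coloured points are the 192 neuronal-gene nuclei (members) by hashtag call and grey points the 13055 mammary nuclei. The 138 nuclei called Unknown_sample2 stand above the mammary nuclei, which reach 20 UMIs of that hashtag, and several nuclei with more than 1 hashtag also stand to the right.

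The 35 nuclei with several hashtags paired Unknown_sample2 with hashtags of every named animal: WT_01 in 7, Oxtr-KO_04 in 6, WT_02 and Oxtr-KO_03 in 5 each, Oxtr-KO_01 and Oxtr-KO_02 in 4 each, and WT_03 and WT_04 in 2 each. They were deeper, with a median of 11026 UMIs against 6880 in the 138 called Unknown_sample2 alone. The 2 deepest of all 192, with 179197 and 139503 UMIs, were of this kind and together held 17.2% of the UMIs of the group. A barcode with several hashtags can hold several nuclei. No doublet caller was run, and values over the 138 are given beside the main values over all 192. Because only 2 nuclei were called as 1 named animal, no comparison of genotypes could be made.

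The nuclei were somewhat deeper than those of the gland, but the rule for Nrg3 and Kcnip4 favours barcodes with more UMIs. The difference in depth therefore cannot be separated from the choice of nuclei. The 139 nuclei called Unknown_sample2 that missed the rule had a median of 3784 UMIs. The 192 nuclei had 848 to 179197 UMIs with a median of 7106, and a median of 3263 genes, against medians of 4989 UMIs and 1985 genes in mammary nuclei. Thinned to 1500 UMIs each, which left out 2 neuronal-gene and 170 mammary nuclei, the medians were 1005 and 811 genes. The median mitochondrial share was 0.0990% and 0.112%.

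The nuclei carried RNA of Y-linked genes, although the labels describe dams. At least 1 UMI of Ddx3y, Uty, Kdm5d or Eif2s3y, the 4 Y-linked genes listed, was found in 180 of 192 (93.8%, 89.3 to 96.7%) and in 37 of 13055 mammary nuclei (0.283%). After thinning the shares were 53.2% and 0.0698%. In the 138 called Unknown_sample2 alone the share was 136 of 138 (98.6%), in those with several hashtags 32 of 35, in those with no called hashtag 10 of 17, and both nuclei called as a named animal had one. Eif2s3y, a translation initiation factor subunit, gave 390 UMIs in 149 nuclei, with a highest count of 10. Uty and Kdm5d, both of the histone demethylase families, gave 242 and 113 UMIs, and the RNA helicase Ddx3y gave 110.

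Xist, the RNA that coats the inactive X chromosome of female cells, was at 78.3 CPM in the 138 nuclei called Unknown_sample2 alone, where CPM scales the summed UMIs of a group to a total of 1000000. In mammary nuclei it was at 2123 ± 199 CPM (SD, n = 8 animals). It had a UMI in 47 of those 138 (34.1%; 13.04% after thinning) and in 99.0% of mammary nuclei (94.0% after thinning). The median was 0 UMIs per nucleus against 10. In the 35 nuclei with several hashtags it had a UMI in 32, with a median of 8 and a highest count of 323, and Y-linked RNA was likewise in 32 of the 35. Free RNA in the droplets gives UMIs to nuclei that do not express a gene, and its part in these Xist counts was not tested.

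**Figure D2:**
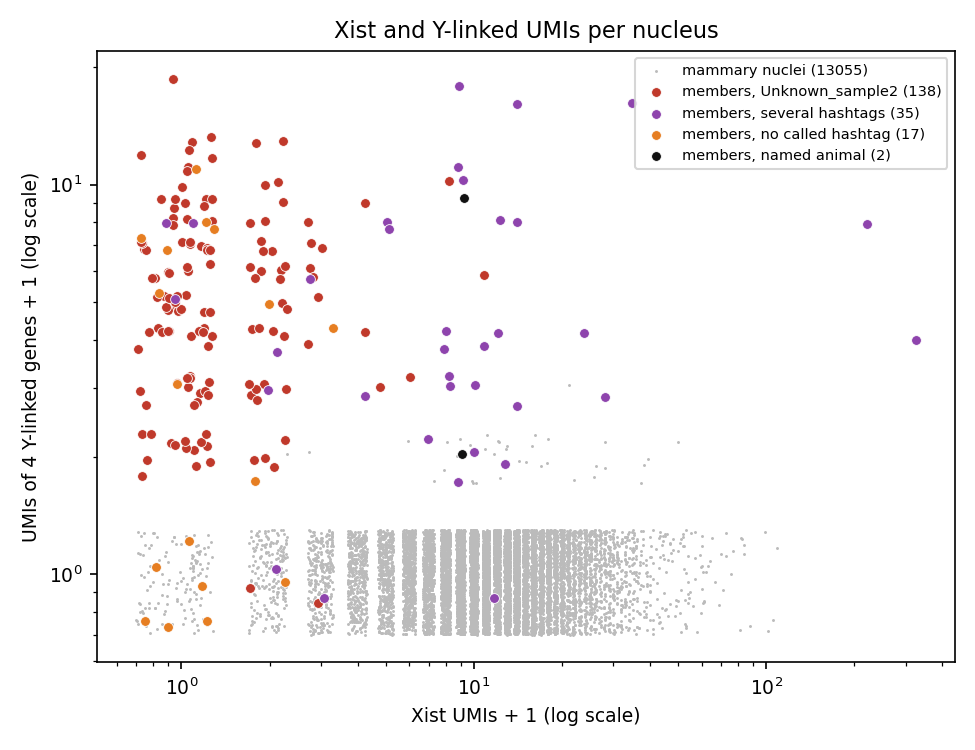
UMIs of 4 Y-linked genes (vertical) against Xist UMIs (horizontal), each plus 1 on log axes with a small seeded jitter, 1 point per nucleus; colours as in the plot of hashtag UMIs. Of the 138 nuclei called Unknown_sample2, 136 held a Y-linked UMI, and they sit at the left; nuclei with several hashtags spread to the right, where the mammary nuclei lie.

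Of a list of 14 pan-neuronal genes, 13 passed the level limit used below. All 13 were at least 4-fold higher than in mammary nuclei (median log2 ratio 8.05, and 8.34 in the 138), as were 16.8% of all genes past the limit. A gene can pass that limit through the neuronal-gene nuclei alone, so this count describes the nuclei and does not check their label. Snap25, a protein of the vesicle fusion machinery, had a UMI in 174 of 192 nuclei (90.6%) with counts from 0 through a median of 4 to 20. In mammary nuclei 30 of 13055 had one (0.230%), and after thinning the shares were 61.6% and 0.109%. Its summed level was 529.9 CPM (95% Poisson interval 497.3 to 564.2) against 0.48 ± 0.23 CPM (SD, n = 8 animals). Syt1, the calcium sensor of vesicle release, was at 1104 against 1.51 ± 0.41 CPM, Rbfox3, which encodes the antigen NeuN, at 107.1 against 0.26 ± 0.23 CPM, and the adhesion protein gene Lsamp at 6740 against 21.9 ± 8.55 CPM. The summed level of the 14 genes was 20046 CPM in the 192 nuclei, 25992 CPM in the 138 and 264.9 to 510.9 CPM over the animals. The neurofilament genes were sparse: Nefl had 41 UMIs in 31 nuclei, and Nefm, the gene under the limit, 14 in 13.

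Across the genome the nuclei differed from mammary nuclei mainly by genes that were higher. Of 10471 genes with a mean of at least 10 CPM over the 2 groups, 1754 (16.8%) were at least 4-fold higher and 257 (2.45%) at least 4-fold lower. The median log2 ratio of these genes was 0.20. In the 138 nuclei alone, 2200 of 10641 (20.7%) were higher and 1031 (9.69%) lower. The count of lower genes depended on the nuclei with several hashtags: without the 2 deepest nuclei it was 794. With TMM scaling, which shifts every log2 ratio by -0.48, 1412 genes were higher and 774 lower. A gene can pass the level limit through 1 group alone, so the counts per list below describe the genes and are no support for the choice of nuclei.

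Among the genes that stood highest, several are known from neurons and 7 of 20 were loci without a descriptive name, such as Gm20642 and Gm26871. Leaving out Nrg3 and Kcnip4, the 20 genes with the highest ratio began with Nrg3os, at 353.6 CPM. It is the antisense partner of Nrg3, and no source here states whether counting used the strand, so its reads and those of Nrg3 cannot be told apart. They also held Grin2a, an NMDA receptor subunit, and Astn1, which acts in neuronal migration. Ralyl, an RNA-binding protein gene, was at 1279 CPM in 170 nuclei and 0.46 ± 0.30 CPM over the animals, a log2 difference of 11.36. Adgrb3, an adhesion receptor of synapses, was at 1578 against 0.83 ± 0.46 CPM (11.01), and Lrrtm4, a postsynaptic adhesion protein gene, at 1857 against 0.98 ± 0.71 CPM (10.96). The synaptic vesicle GTPase gene Rab3c, the cadherin gene Cdh12, the scaffold gene Dlgap2 and Car10 were among them, as was the noncoding RNA Rmst.

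Ion channel genes were high as families. Of 7 voltage-gated sodium channel genes, all passed the level limit and 6 were at least 4-fold higher, with a median log2 ratio of 7.72. Of all genes past the limit 16.8% were higher. Scn1a, a pore subunit, was at 209.8 CPM in 119 nuclei against 0.19 ± 0.14 CPM, and Scn2a at 262.3 against 1.26 ± 0.34 CPM. Scn8a, at 169.3 against 48.9 ± 9.82 CPM, was the member under 4-fold. Scn9a, known from peripheral sensory and sympathetic neurons but also found in the hypothalamus, had a UMI in 124 nuclei. In the 138 nuclei alone all 7 were higher, with a median of 8.12, and Scn1a was at 281.3 CPM.

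Potassium and calcium channels followed the same pattern. Of 12 potassium channel genes, 10 passed the limit and 9 were higher by 4-fold (median log2 ratio 6.25), among them Kcnq3, a subunit of the channels of the M current, at 206.6 against 0.12 ± 0.15 CPM. Kcnq5, at 260.6 CPM against 167.9 ± 43.9 CPM over the animals, was not. Of 9 calcium channel genes 8 were higher, led by Cacna1b, the N-type pore, at 211.4 against 0.29 ± 0.15 CPM. In the Kv4 channel complex, to which Kcnip4 belongs, 5 of 6 genes past the limit were higher. Its pore Kcnd2 was at 1228 against 6.53 ± 6.23 CPM and its partner Dpp6 at 1137 against 31.7 ± 13.3 CPM. In the 138 the medians of the potassium, calcium and Kv4 lists were 6.498, 4.77 and 6.84, and Kcnd2 was at 1634 CPM.

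Receptor genes of glutamate and GABA were high in the nuclei as lists, and their summed levels in the gland were low. All 13 AMPA, kainate, NMDA and delta receptor genes were at least 4-fold higher, with a summed level of 6896 CPM against 30.7 to 56.7 CPM over the animals and a median log2 ratio of 8.63. Gria2, which sets the calcium permeability of AMPA receptors, ran from 0 through a median of 5 to 41 UMIs per nucleus and had a UMI in 179 of 192. It was at 685.1 against 0.47 ± 0.42 CPM, and Grin2b at 528.3 against 0.95 ± 0.33 CPM. All 10 GABA-A receptor genes past the limit were higher (median 9.60), with Gabrb1 in 178 nuclei at 893.8 against 0.89 ± 0.44 CPM. Gabrd, which forms extrasynaptic receptors, had 2 UMIs. Of the metabotropic glutamate receptors, Grm7 (997.7 CPM), Grm5 (595.4 CPM), Grm8 and Grm3 were among the 5 of 5 past the limit that were higher, and Grm2 had 1 UMI. In the 138 the ionotropic glutamate, GABA-A and metabotropic lists had medians of 8.83, 10.01 and 10.90, and Gria2 was at 941.5 CPM.

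Genes that build the synapse were likewise high, where 16.8% of all genes past the limit were at least 4-fold higher. Of 16 synaptic adhesion genes past the limit 15 were higher (median log2 ratio 8.22): Nlgn1, a postsynaptic neuroligin, had a median of 11 UMIs per nucleus and was at 1866 against 20.5 ± 5.61 CPM. Adgrl2, at 224.9 against 360.0 ± 82.1 CPM, went the other way. Of 17 vesicle release genes 14 were higher (4.64), including the active zone genes Rims1 (520.2 against 0.49 ± 0.19 CPM) and Bsn. Vamp2, Stx1a and Nsf, which serve secretion in many cells, had log2 ratios of -0.13, 1.02 and 1.56. Of 12 postsynaptic scaffold genes 8 were higher (3.95), with Dlgap2 at 305.0 against 0.17 ± 0.15 CPM. Shank2 was lower in the nuclei, at 304.4 against 689.3 ± 68.5 CPM, as was Dlg1. In the 138 the medians of the adhesion, vesicle and scaffold lists were 8.31, 5.02 and 4.34, with Nlgn1 at 2527 CPM and Shank2 at 155.6 CPM.

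Axon guidance receptors and neuronal RNA-binding proteins gave the same picture. Of 11 guidance genes past the limit 10 were higher (median log2 ratio 5.44), led by the netrin receptor gene Dcc at 646.7 against 0.33 ± 0.19 CPM. Of 13 RNA-binding protein genes 10 were higher (5.86), with Rbfox1, a splicing factor, at 1970 against 5.40 ± 1.97 CPM. Celf2, Rbfox2 and Khdrbs3 were within 2-fold of the mammary level on the same scale, at log2 ratios of -0.13, 0.40 and 0.48. In the neuregulin and ErbB list only Nrg1 passed 4-fold upward (1783 against 28.0 ± 7.83 CPM), Erbb3 was lower at 11.4 against 82.4 ± 20.9 CPM, and Erbb2 had 0 UMIs, which allows up to 3 UMIs in 1849323. Erbb4, the receptor of Nrg3, was at 803.5 CPM in the nuclei and 522.4 ± 101.7 CPM in the gland. In the 138 the guidance and RNA-binding lists had medians of 5.82 and 6.27, with Dcc at 877.7 CPM, Nrg1 at 2215 CPM and Erbb4 at 864.1 CPM.

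**Figure D3:**
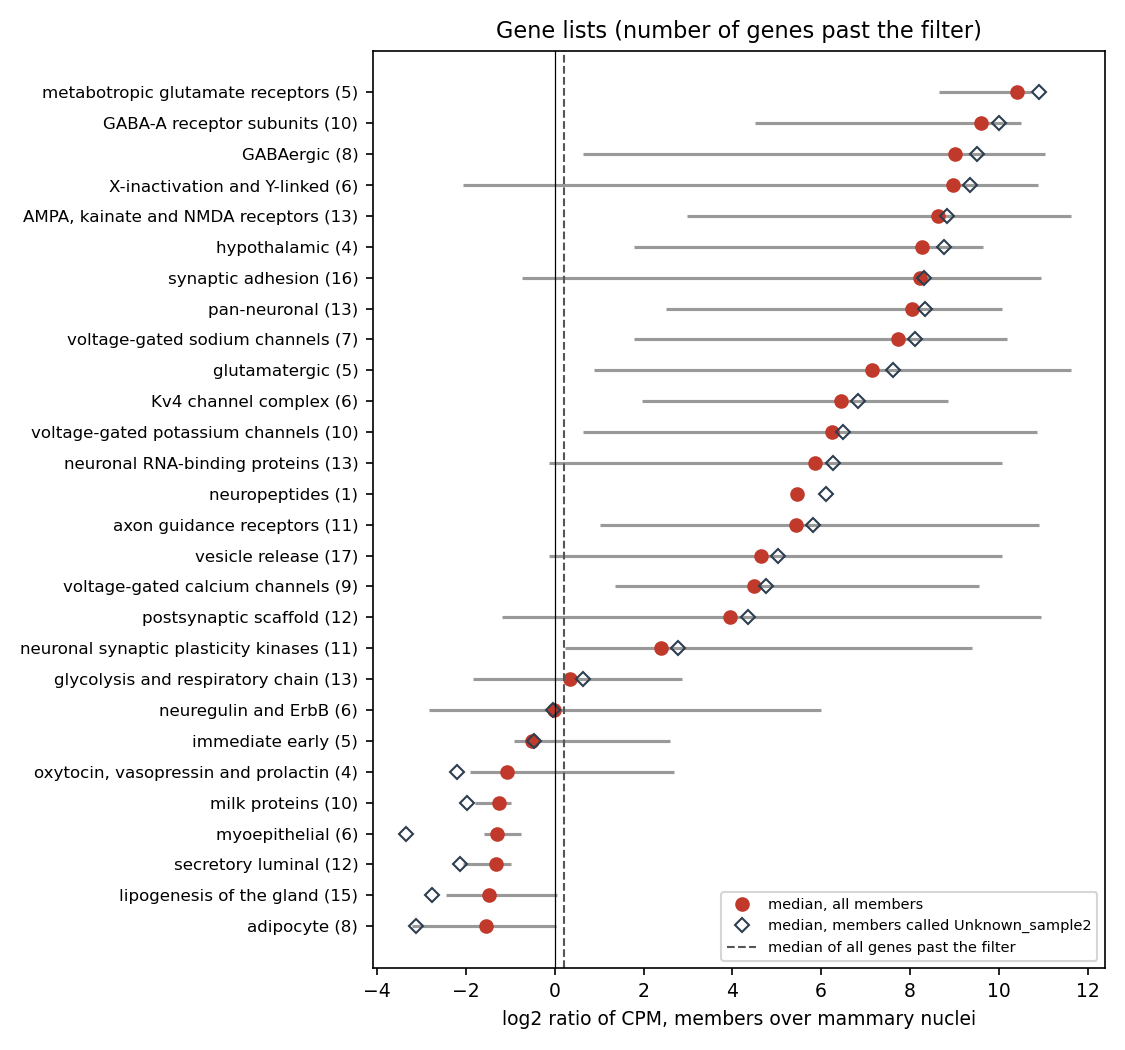
Log2 ratio of CPM of the 192 neuronal-gene nuclei (members) over mammary nuclei for gene lists, with the number of genes past the level limit in brackets; red points are medians, grey lines run from the lowest to the highest gene, and open diamonds are medians in the 138 nuclei called Unknown_sample2. The receptor, channel and synapse lists lie to the right of the dashed median of all genes (0.20), and milk, lipogenesis and adipocyte lists to the left.

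By transmitter the nuclei were mixed. Slc17a6, the vesicular glutamate transporter of subcortical neurons, had 191 UMIs in 94 nuclei. Slc17a7, the transporter of most cortical neurons, had 2 UMIs and Slc17a8 none. Gad2 had 125 UMIs in 55 nuclei, Gad1 45 in 29 and Slc32a1 43 in 21. A glutamate transporter without any of the 3 GABA genes was seen in 79 nuclei (41.1%), a GABA gene without a glutamate transporter in 44 (22.9%), both in 17, of which 4 carried several hashtags, and neither in 52 (27.1%), whose median depth was 4851 UMIs. At these counts the absence of a UMI does not show that a gene was off.

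Genes of hypothalamic neurons were present in part, where 16.8% of all genes past the level limit were at least 4-fold higher. Of 12 listed, 4 passed the level limit and 3 were at least 4-fold higher, Sim1, Otp and Trh, while Nr5a1 and Hcrt had 0 UMIs and Pmch 1. Sim1, a transcription factor needed for the paraventricular and supraoptic nuclei, had 332 UMIs in 101 of 192 nuclei (52.6%), with counts from 0 through 1 to 19. It had a UMI in 10 of 13055 mammary nuclei, and after thinning the shares were 25.3% and 0.0388%. Otp, a homeobox gene of the same neurons, had 66 UMIs in 49 nuclei, 41 of them among the 101 with Sim1. A glutamate transporter was seen in 69 of the 101 nuclei with Sim1 and in 27 of the 91 without, and a GABA gene in 18 and 43. The 2 sets had median depths of 7411 and 6795 UMIs.

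Neuropeptide RNA was found in a minority of the nuclei. Trh, the thyrotropin-releasing hormone gene, had 66 UMIs in 31 nuclei, 9 of them with at least 3 UMIs and a highest count of 8; 52 of the UMIs were in the 138. Penk, the proenkephalin gene, had 74 UMIs in 28 nuclei, 13 with at least 3, and 65 of the UMIs were in the 138. Crh had 16 UMIs in 11 nuclei and Avp 10 in 7, with highest counts of 3 and 4. In mammary nuclei Trh and Penk had 17 and 65 UMIs in all, with highest counts of 1 and 2. Agrp, a peptide gene of arcuate neurons, had 54 UMIs in 37 nuclei but also 608 UMIs in 563 mammary nuclei. Vip, Nts and Grp were at 0, Sst and Npy at 1 UMI each.

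Oxt, the gene of oxytocin, had 32 UMIs in 7 of the 192 nuclei. Of these, 20 lay in 1 nucleus with several hashtags (12485 UMIs) and 6 in the nucleus called WT_03 (15372 UMIs). The call of WT_03 left out Unknown_sample1, which held 299 of the 482 hashtag UMIs of that nucleus, so its animal is not settled. No other kept barcode of the library had 3 or more Oxt UMIs, and the highest count among mammary nuclei was 1. The first nucleus had no UMI of Sim1 or Otp and 1 of Avp, and the second had 2 of Sim1. Oxtr, the gene deleted in the study's knockouts, had 17 UMIs in 10 nuclei, 11 of the UMIs in the cluster of several-hashtag nuclei described below. Its level was 9.19 CPM in the 192, 4.83 CPM in the 138 and 17.03 ± 4.66 CPM over the animals.

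Lists named for other brain regions were mixed, and of all genes past the limit 16.8% were at least 4-fold higher. Of the upper cortical layer list 4 of 5 genes past the limit were at least 4-fold higher, of the deep layer list 3 of 5 and of the striatal list 3 of 5, with summed levels of 509.9, 870.6 and 950.1 CPM against 58.2 to 92.4, 377.2 to 590.1 and 203.1 to 326.2 CPM over the animals. Cux2, Calb1, Hs3st4 and Rgs9 were among the higher genes, at 58.4, 38.4, 113.6 and 100.6 CPM. Other genes of these lists were near 0. Of the cortical forebrain genes Emx1 and Neurod6 had no UMI and Tbr1 had 1. Of the striatal genes Drd1 had 1 UMI, and Adora2a none, although Pde10a was at 618.6 against 17.6 ± 7.43 CPM. Of the 12 peripheral sensory genes only Scn9a passed the limit, at 190.9 against 0.20 ± 0.17 CPM. The sensory neuron genes Scn10a, Scn11a, Trpv1, Calca and Mrgprd had no UMI, and the autonomic genes Phox2a, Hand2, Dbh and Chrna3 none either. Th had 2 UMIs and Chat 0. Of the 12 hindbrain and spinal genes 8 were at 0, and the rest, 4 Hox genes, summed to 6.49 CPM against 8.95 to 16.4 CPM over the animals for the list. A count of 0 over the 192 nuclei allows up to 3 UMIs in 1849323, for counting error only.

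Several defining glial genes were at or near 0, while other genes of the glial lists were not. Olig1, Olig2 and Opalin had 0 UMIs, Aqp4 1, Gfap 3 and Mog 3, and the microglial gene Tmem119 had 0. P2ry12 had 47 UMIs in 37 nuclei with a highest count of 4. The summed astrocyte list was at 546.7 CPM against 321.7 to 509.3 CPM over the animals. Gpc5, which many neurons also express, made up 320.1 of this, with a UMI in 77 nuclei, and 469.8 CPM in the 138. The glutamate transporter gene Slc1a2 had 54 UMIs, 43 of them in the 138. Slc1a3 had 144, of which 134 lay in the cluster of several-hashtag nuclei described below and 9 in the 138.

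When the 192 nuclei were clustered alone they fell into 6 clusters, numbered 0 to 5. A cluster was called glutamatergic-like where its UMIs of the 3 vesicular glutamate transporters exceeded those of Gad1, Gad2 and Slc32a1 and at least 3 markers of the list were each seen in at least 10% of its nuclei, and GABAergic-like in the reverse case. A cluster in which most nuclei carried several hashtags was left unnamed whatever its counts. This counting rule was written after the clusters had been seen. The genes that lead a cluster describe how it was formed and are not findings about it. Clusters 2 to 5, with 104 nuclei in all, were glutamatergic-like and cluster 1, with 61, GABAergic-like. Counting the whole marker lists per nucleus instead gave 47 and 133, and the GABAergic list also holds Erbb4, Adarb2 and Nxph1, with 1486, 1113 and 563 UMIs in the 192 nuclei.

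Cluster 1 (61 nuclei, 49 called Unknown_sample2) held 159 UMIs of the GABA genes against 32 of glutamate transporters. Gad2 was seen in 34, Gad1 in 23, and Dlx6os1, a noncoding RNA of the Dlx locus that marks forebrain GABA neurons, in 24. Penk was seen in 10 and Sim1 in 8. Its leading genes by fold included Slc32a1, Dlx6os1, Gad1, Sox2ot, Nxph1 and Grik3.

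Cluster 3 (61 nuclei, 52 called Unknown_sample2) held most of the Trh RNA, 60 of 66 UMIs, in 27 nuclei. Sim1 was seen in 50 of its nuclei, Otp in 22 and Slc17a6 in 38, while GABA genes gave 10 UMIs. It was led by Trh, by Hcrtr2, a receptor of the orexin peptides, and by the potassium channel subunit gene Kcnmb2.

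Clusters 4 and 5 had 18 nuclei each. In cluster 4, Penk was seen in 11, Sim1 in 11, Slc17a6 in 11 and Adarb2, better known from cortical interneurons, in 17, with 1 UMI of the GABA genes. It was led by Aox3, Ror1 and Etv1. In cluster 5, Sim1 was seen in 16, Slc17a6 in 14, Gad2 in 7 and Crh in 4, its balance was the closest of the named clusters with 29 glutamate transporter against 19 GABA gene UMIs, and Nrg1 gave 1230 of its 3298 UMIs. Kcnh8, Foxp2 and Rorb were among its leading genes.

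Cluster 2 held 7 nuclei, all called Unknown_sample2, with 13 glutamate transporter UMIs, 0 of the GABA genes and 0 of Sim1. Tcf7l2 and Ntng1, both strong in thalamic neurons, had UMIs in all 7, Lef1 in 4 and Calb1 in 6. Tcf7l2 is no marker of these nuclei against the gland, whose level was 1342 ± 167 CPM against 1058 CPM in cluster 2, while Ntng1 was at 3188 CPM in the cluster and 32.0 ± 12.5 CPM over the animals. With 7 nuclei a gene at 0 could still be present in many of them, and Gbx2, another thalamic marker, had no UMI in any of the 192.

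Cluster 0 (27 nuclei) was left unnamed because 25 of them carried several hashtags. It held 24 UMIs of the GABA genes and 23 of glutamate transporters, so by the counts alone it would have been GABAergic-like by 1 UMI. Its leading genes, Il15, Gata3, Rbm47, Fam20a and Slc28a3 among them, are not on the pan-neuronal list, although Gata3 was listed with the autonomic genes. All 27 had a Xist UMI, 803 in sum, and 25 had a Y-linked UMI. Xdh, which encodes an enzyme of milk fat secretion, was in all 27 with 2029 of its 2141 UMIs, and Elf5, a factor of the secretory lineage, in 26. Sim1 was seen in 16 and Snap25 in 24.

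**Figure D4:**
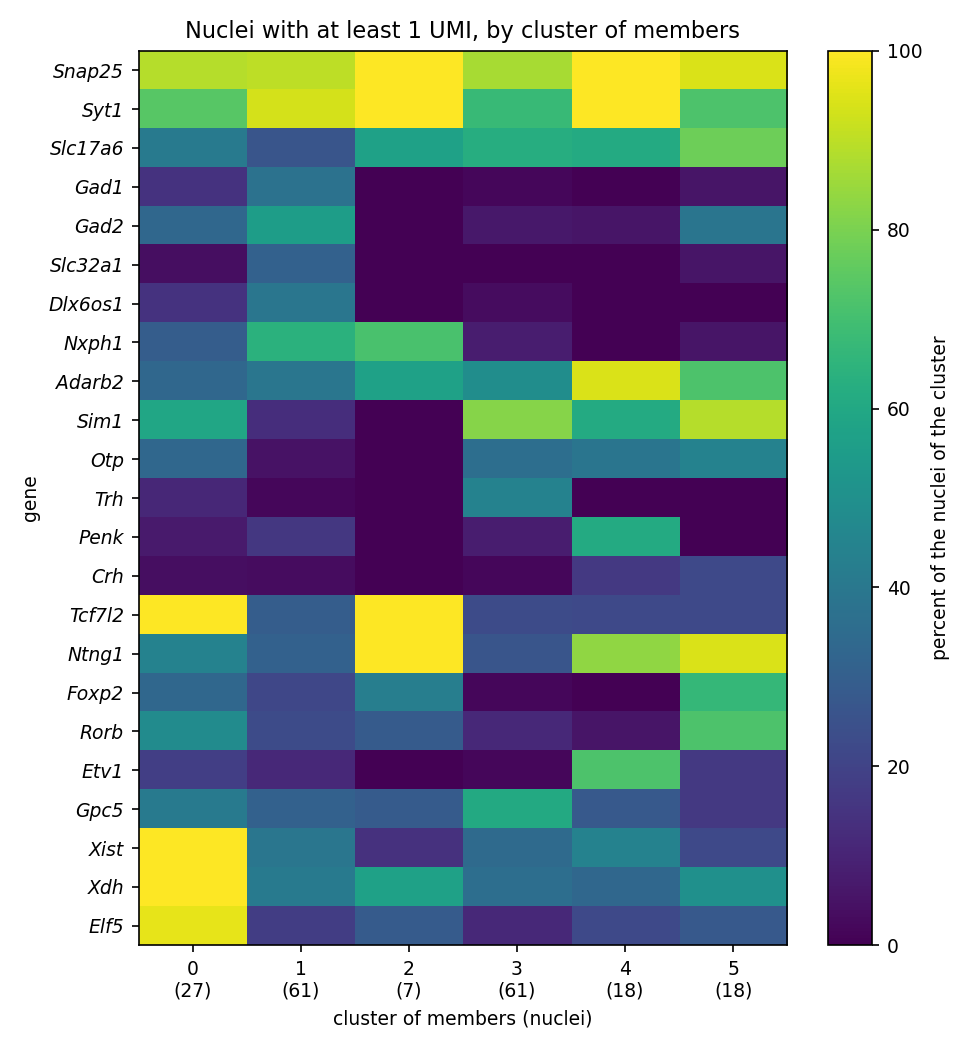
Share of nuclei with at least 1 UMI of each gene (rows, colour scale in percent) in the 6 clusters of the 192 neuronal-gene nuclei (columns, number of nuclei in brackets). Gad1, Gad2 and Slc32a1 are seen most often in cluster 1, Sim1 in clusters 3, 4, 5 and 0, Tcf7l2 in clusters 2 and 0, and Xist, Xdh and Elf5 in cluster 0; depths differ, with medians from 5292 UMIs in cluster 3 to 12318 in cluster 0.

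RNA of the gland was lower in the nuclei but not missing. The 10 milk protein genes held 5.51% of all UMIs of the 192 and 3.62% of those of the 138, against 14.99 ± 1.69% (SD, n = 8 animals), whose lowest animal was at 11.1%. Csn2, the gene of beta-casein, had UMIs in all 192 nuclei with a median of 76, and was at 14273 CPM in the 192 and 10000.3 CPM in the 138 against 41471 ± 4498 CPM. Wap, a whey protein gene, was at 8184 and 7456 against 19251 ± 1700 CPM. None of the 10 genes was 4-fold lower in the 192, with a median log2 ratio of -1.25. In the 138, 5 of 10 were, with a median of -1.99. Over all genes past the limit 2.45% were lower in the 192 and 9.69% in the 138. Milk protein UMIs were also found in nuclei of other types of the gland, at 12.2% in myoepithelial-like and 8.24% in adipocyte-like nuclei. Fibroblast-like nuclei were at 11.0%, macrophage-like at 13.9% and vascular endothelial-like at 16.3%, against 15.9% in secretory luminal-like nuclei. The median depths of the types other than secretory ran from 3015 to 5214 UMIs.

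Genes of the secretory cell other than milk proteins were much lower in the 138. Xdh was at 66.7 CPM against 3904 ± 550 CPM and Elf5 at 24.2 against 712.7 ± 71.2 CPM. The ratio of Csn2 to Xdh UMIs was 149.9 in the 138 and 10.5 in mammary nuclei, and that of Csn2 to Csn1s1 was 1.93 and 1.31, so the gland's RNA was not in the same proportions in the 2 groups. Xdh had a UMI in 39.1% of the 138 (9.42% after thinning) and in 93.7% of mammary nuclei (90.2%). In the 35 nuclei with several hashtags, Xdh was in 32 and Slc28a3, a nucleoside transporter gene, in 34. After thinning, Slc28a3 was in 80.0% of the 35 and in 91.3% of mammary nuclei, whose median depths were 11026 and 4989 UMIs.

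The genes of fat synthesis and of adipocytes showed the same contrast. Over all genes past the limit 2.45% were at least 4-fold lower in the 192 and 9.69% in the 138. Of 15 lipogenesis genes past the limit 2 were lower in the 192 (median log2 ratio -1.47), and 9 of 14 in the 138 (-2.76). Fasn, the fatty acid synthase, was at 275.2 CPM in the 192, 31.9 in the 138 and 759.7 ± 163.9 over the animals. Acaca, the enzyme that makes malonyl-CoA, was at 1747, 355.7 and 5918 ± 1106 CPM. Of 8 adipocyte genes past the limit 3 were lower in the 192 and 7 in the 138, where Plin1 and Cidec, both coats of lipid droplets, had 0 UMIs. Among the 20 genes of lowest ratio were Plin4, Pck1, the gatekeeper of gluconeogenesis, at 7.03 against 67.7 ± 21.7 CPM, and Mfsd2a, a lipid transporter gene, at 4.87 against 43.9 ± 10.4 CPM. Pck1 was at 2345 CPM in adipocyte-like nuclei but at 2.04 CPM in secretory luminal-like nuclei. Plin4 was at 644.7 and 0.99 CPM in these, and at 2.16 CPM in the 192. In these 2 genes the 192 were thus below adipocyte-like nuclei but not below secretory luminal-like nuclei.

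Energy genes of all cells were closer together by their median log2 ratio. Of 13 glycolysis and respiratory chain genes 2 were at least 4-fold higher, Pfkp and Ldhb, and none lower in the 192. Over all genes past the limit 16.8% were higher and 2.45% lower, so these counts do not set the list apart. In the 138, 2 of 13 were higher and 1 lower. The median log2 ratio of the 13 genes in the 192 was 0.34, a direction that the TMM shift of -0.48 turns. Cox4i1 was at 84.4 against 78.2 ± 7.50 CPM. Hk2 was at 41.1 CPM in the 192, 1.93 in the 138 and 152.6 ± 33.1 over the animals.

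**Figure D5:**
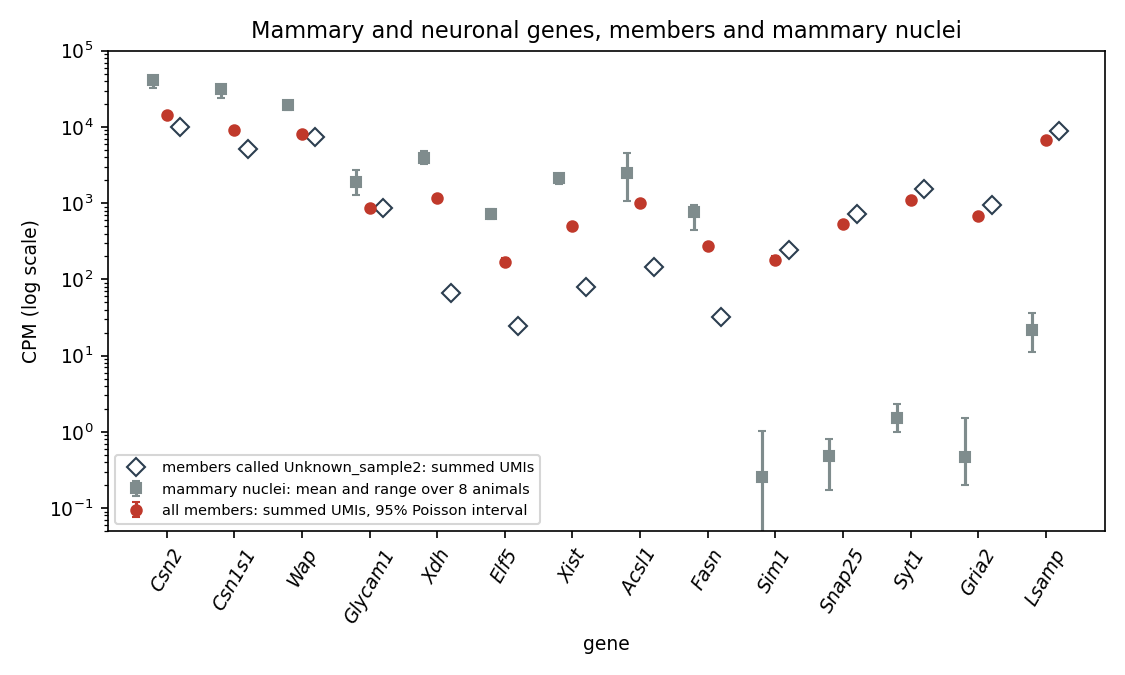
CPM (log axis) of mammary and neuronal genes: grey squares are the mean over the 8 animals of mammary nuclei with bars from the lowest to the highest animal (cut at the axis where the lowest is 0), red points the sum over the 192 neuronal-gene nuclei (members) with 95% Poisson intervals, and open diamonds the sum over the 138 called Unknown_sample2. Xdh, Elf5 and Xist stand further below the mammary level in the 138 than the milk protein genes do, and Sim1, Snap25, Syt1, Gria2 and Lsamp stand far above it.

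The nuclei called Unknown_sample2 that missed the rule were of 2 kinds. When all kept barcodes without several hashtags were clustered, the 157 neuronal-gene nuclei among them fell into 1 cluster of 278. Of the 139 nuclei called Unknown_sample2 that missed the rule, 102 lay in that cluster, with Snap25 in 73, Sim1 in 26 and a Y-linked UMI in 82. Gad2 had a UMI in 40 of the 102 (39.2%) and Slc17a6 in 22 (21.6%). In the 138 that met the rule these shares were 29.7% and 53.6%. The balance of the 2 genes thus went the other way in the nuclei that missed the rule, at depths that were not matched. The transmitter shares given above hold only for nuclei that met the rule. The other 37 of the 139 lay outside the cluster of 278, 10 of them in clusters without a cell type name and the rest in clusters named for types of the gland or its immune cells. They had no Y-linked UMI, which allows a share of up to 9.49% (upper Clopper-Pearson limit), and Xist was in 33 with a median of 4 UMIs. Over all 139 the median count of the Unknown_sample2 hashtag was 106 UMIs, against 233 in the 138 that met the rule.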

How the data were processed

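The authors deposited raw UMI counts per gene and barcode, whole numbers that are not normalized, and a table with the read count behind each hashtag UMI. The submitters' processing notes name fastp, Cell Ranger 7.2.0 and the mouse build GRCm39, and nothing at hand says how strand and introns were counted. The genome at hand is of another build, so no coordinates are printed. Lines of the hashtag table were counted as hashtag UMIs per barcode, and 61.4% rested on 1 read. Of 21805 barcodes 951 were removed. Calls came from HTODemux (Seurat 5.3.0, R 4.3.3, centred log ratios, quantile 0.99) on 9 of the 10 hashtags, without Unknown_sample1. Counts were summed per group and scaled to CPM, with a floor of 3 counts in a ratio. Clusters used scanpy 1.11.5 (2000 variable genes, 30 components, 15 neighbours, Leiden resolution 0.5). The ratio was tested on simulated data. TMM factors came from edgeR 4.0.16.

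The nuclei, gene lists and comparisons were chosen with earlier results of these data known. All list genes could be named, with the 20 highest and 20 lowest ratios (at least 30 UMIs over the 2 groups) and the leading genes of each cluster. Intervals cover counting error only. The other barcodes with several hashtags were left out of the mammary group, since they can hold nuclei of 2 animals, as were those with no called hashtag.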

Additional observations from a re-analysis of the deposited data

Results flagged for a closer look

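Unknown_sample1, the second unknown hashtag, entered no call and had 12088 UMIs in all. At least 20 of its UMIs were held by 6 kept barcodes, with 143 to 299 UMIs each, while no other kept barcode had more than 18 and the median was 0. Of the 6, 5 were neuronal-gene nuclei, with 4784 to 15372 UMIs, and the other had 11 UMIs of Kcnip4 and 0 of Nrg3. All 6 held Y-linked UMIs, 3 to 10 each, and Snap25 UMIs, 3 to 17 each. Xist had 8 UMIs in the barcode that HTODemux called WT_03 and 0 in the other 5, for which no hashtag was called. The barcode called WT_03 is the one with 6 Oxt UMIs.

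Among the 8 animals that gave the mammary nuclei, Oxtr-KO_03 lay apart from the rest in 2 of 10 measures examined. Its milk protein share was 11.1% of UMIs against 14.8 to 16.3% in the other 7, and its secretory luminal genes summed to 108643 CPM against 138245 to 152712 CPM. Chance marks about 1 in 20 such groups, and the 2 measures share 8 of their genes. The neuronal-gene nuclei, at 5.51%, were below this animal too.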

How the results depend on the processing

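Of 57 recomputed values, 40 stayed within their interval, or within 1.5 times for a count, and 17 moved. The share of neuronal-gene nuclei called Unknown_sample2 was 83.9% by the hashtag with the most UMIs, and the share of Unknown_sample2 nuclei that met the rule was then 59.6%. With 5 UMIs of each gene required that share was 41.2%. The milk protein share was 5.58% with 2 UMIs of each gene, 3.62% in the nuclei called Unknown_sample2 alone, 3.88% without the barcodes with several hashtags and 4.46% without the 2 deepest nuclei, and the share with a Y-linked UMI was 98.6% in the nuclei called Unknown_sample2 alone. The count of lower genes, 257 at first, was 1031 in the nuclei called Unknown_sample2 alone, 1007 without several hashtags, 774 with TMM scaling, 867 with means of scaled values per nucleus, 794 without the 2 deepest nuclei and 394 with no limit on low counts. That last choice gave 11127 higher genes in place of 1754. Counting marker lists per nucleus gave 47 glutamatergic and 133 GABAergic nuclei in place of 104 and 61. The alternative without the 2 deepest nuclei was added after seeing the data. HTODemux on all 10 hashtags could not be fitted and was not run. No paired analysis was possible because the comparison sets neuronal-gene nuclei, nearly all without a named animal, against mammary nuclei, and the numbers in the hashtag names number only the dams. Depth limits what a gene with no UMI shows, and hashtags do not show nuclei of the same sample in 1 barcode.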

Other observations

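Immediate early genes were not set apart as a list in the neuronal-gene nuclei, and the hormone receptor genes named here went both ways. Of 5 immediate early genes past the level limit, 1 was at least 4-fold higher, where 16.8% of all genes past the limit were. It was Bdnf, a neurotrophin gene, at 23.8 CPM against 3.84 ± 1.64 CPM (SD, n = 8 animals). Fos, Jun and Junb had log2 ratios of -0.15, -0.91 and -0.50. Pgr, the progesterone receptor gene, had 48 UMIs in 37 nuclei and was at 26.0 against 4.26 ± 1.53 CPM, while Esr1 and Prlr, the receptors of oestrogen and prolactin, were at 158.4 against 578.8 ± 178.2 CPM and at 95.7 against 236.3 ± 23.6 CPM. In the 138 nuclei called Unknown_sample2 alone Esr1 was at 34.8 CPM, and 243 of the 293 Esr1 UMIs of the 192 lay in the cluster with several hashtags.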
